A study of Mus musculus with 3 samples.

Results

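The genes described here are 49 chromatin remodelers and histone chaperones of the mouse, followed on 3 arrays as embryonic stem (ES) cells were turned into definitive endoderm and then into early hepatic cells. They were taken by name from a list that holds 14 SWI/SNF subunits, 5 ISWI proteins, 7 CHD proteins, 5 proteins of the INO80 and SRCAP complexes and 14 histone chaperones, and 4 further ATPases of the SNF2 family (Smarcad1, Smarcal1, Hells and Atrx) that belong to none of these complexes. All 49 were found on the array, with a probe well above background on all 3 days, among 21616 genes with a probe above background on at least 1 array. The rule uses gene names only, no measured value, but the 49 genes were chosen with earlier results of these data known.

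Nucleosomes block access to DNA, and cells use ATP-driven remodelers to slide, evict or exchange them. SWI/SNF (BAF) complexes open regulatory regions, ISWI complexes space nucleosomes, the CHD proteins include the motor of the repressive NuRD complex, INO80 slides nucleosomes, and SRCAP places the histone variant H2A.Z. Histone chaperones carry the histones themselves, either behind the replication fork or at sites of transcription. In ES cells the BAF complex is known to be built around Smarca4 and Smarcc1, and subunits are swapped for their relatives as cells differentiate.

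The ES cells were of the line E14.1. On day 0 they were undifferentiated cells kept on gelatin in serum-free N2 and B27 medium with BMP4 and LIF. The day 5 cells had been moved to collagen IV in the same medium with activin A in place of BMP4 and LIF, and the day 7 cells were such endoderm cells cultured for 2 more days with BMP4 and bFGF besides activin A. The series was made to see gene expression around the appearance of Foxa2, an endoderm transcription factor.

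Total RNA was hybridised to 1 one-colour array a day, all on 1 slide, so there are no replicates, no test was possible and no p-value is given. On each array 70.9% to 71.7% of the gene spots were well above background and no gene spot was saturated. Signals are given on the log2 scale relative to the 75th percentile of the array, which is 0, and a level is never set against that of another gene, since probes differ in brightness. Spots of the same probe repeated on an array scattered with a median SD of 0.076 to 0.080 (log2, 189 to 190 probes), which gives an SD of 0.11 for a difference between days. That figure covers spot noise only, not the spread between cultures. A gene is called higher or lower where its signals differ by at least 2-fold and the brighter one is well above background. Each gene is represented by its brightest probe above background, and positions are those of the probes on mouse build mm9. Whether a probe lies in coding or untranslated sequence was not annotated.

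The day labels were set against marker genes. All 7 ES cell markers were called lower on both later days, and Pou5f1 had 3.26 on day 0, 0.88 on day 5 and -0.88 on day 7. All 8 definitive endoderm markers were called higher on both later days, with Foxa2 at -4.22, 4.29 and 3.98. Of 7 hepatic markers, 5 were called higher on day 5 and 6 on day 7, with the fetal liver protein Afp at -5.93, -5.29 and 3.83, while Alb was above background on day 5 alone. Markers of other cells moved too: on day 7 against day 0, 7 of 7 extraembryonic endoderm, 6 of 7 mesenchyme, 5 of 6 cardiac mesoderm and 2 of 7 neural markers were called higher, and 1 mesenchyme and 2 neural markers were called lower. Their summed signals on days 0, 5 and 7, in multiples of the 75th percentile, were 24.8, 63.6 and 193 for extraembryonic endoderm, 2.65, 2.56 and 19.6 for mesenchyme, 5.82, 29.5 and 8.57 for cardiac mesoderm and 4.52, 3.97 and 4.42 for neural genes. These sums are carried by the brightest genes. On day 7 against day 5, 5 of the 6 cardiac markers were called higher and 1 lower, so the fall of their sum comes from that 1 marker. In bulk RNA of this kind, fewer cells of a type and less RNA per cell cannot be told apart, and the part that such cells have in the results below was not tested.

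On day 5 against day 0, 8 of the 49 genes were called higher and 12 lower, which is 16.3% and 24.5% of them. Among all 21616 genes compared, 16.4% were called higher and 16.1% lower, and among the 18443 of them with a probe above background on all 3 arrays, as the 49 have, 15.7% and 15.0%. The median difference of the 49 was -0.31 on the log2 scale, beside -0.11 for all genes. On day 7 against day 0, 7 were called higher and 11 lower (14.3% and 22.4%), beside 16.2% and 19.1% of all genes (15.6% and 17.9% of those above background throughout), and the medians were -0.51 for the 49 and -0.19 for all. On day 7 against day 5, 1 was called higher and 2 lower, beside 5.98% and 8.38% of all genes (4.86% and 6.92% of those above background throughout), with medians of -0.18 for the 49 and -0.06 for all. The share called higher was near or below that of all genes in each comparison. The share called lower was above it on days 5 and 7 against day 0 and below it on day 7 against day 5. The excess depended on the processing. With quantile normalisation 9 of the 49 were called higher and 8 lower (16.3%) on day 5, and 7 higher and 8 lower (16.3%) on day 7, beside 15.3% and 16.6% of all genes called lower on these days. The authors' deposited table gave the same counts, beside 15.2% and 16.4%. Its medians for the 49 (-0.11 and -0.36) were close to those of quantile normalisation (-0.12 and -0.36), so it may not be a separate setting. Another background correction (normexp), in a refit chosen after seeing the data, gave a larger excess. With it, 11 were called lower on day 5 (22.4%) and 12 on day 7 (24.5%), beside 12.3% and 13.9% of all genes.

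The comparisons against day 0 share the day 0 array. In them, 7 genes were called higher on both later days: Smarca2, Smarce1, Smarca1, Chd3, Chd7, Nap1l2 and Nap1l3. The 10 called lower on both were Actl6a, Smarca5, Chd9, Ino80, Ruvbl2, Smarcad1, Hells, Asf1b, Chaf1b and Daxx. Arid2 was called higher on day 5 alone, Smarcd3 and Chaf1a were called lower on day 5 alone, and Supt16h was called lower on day 7 alone. Npm3 was called on day 7 against day 5 alone, which makes 22 genes called in at least 1 comparison. The other 27 lay between -0.64 and 0.98 on day 5 and between -0.88 and 0.96 on day 7 against day 0.

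**Figure D1:**
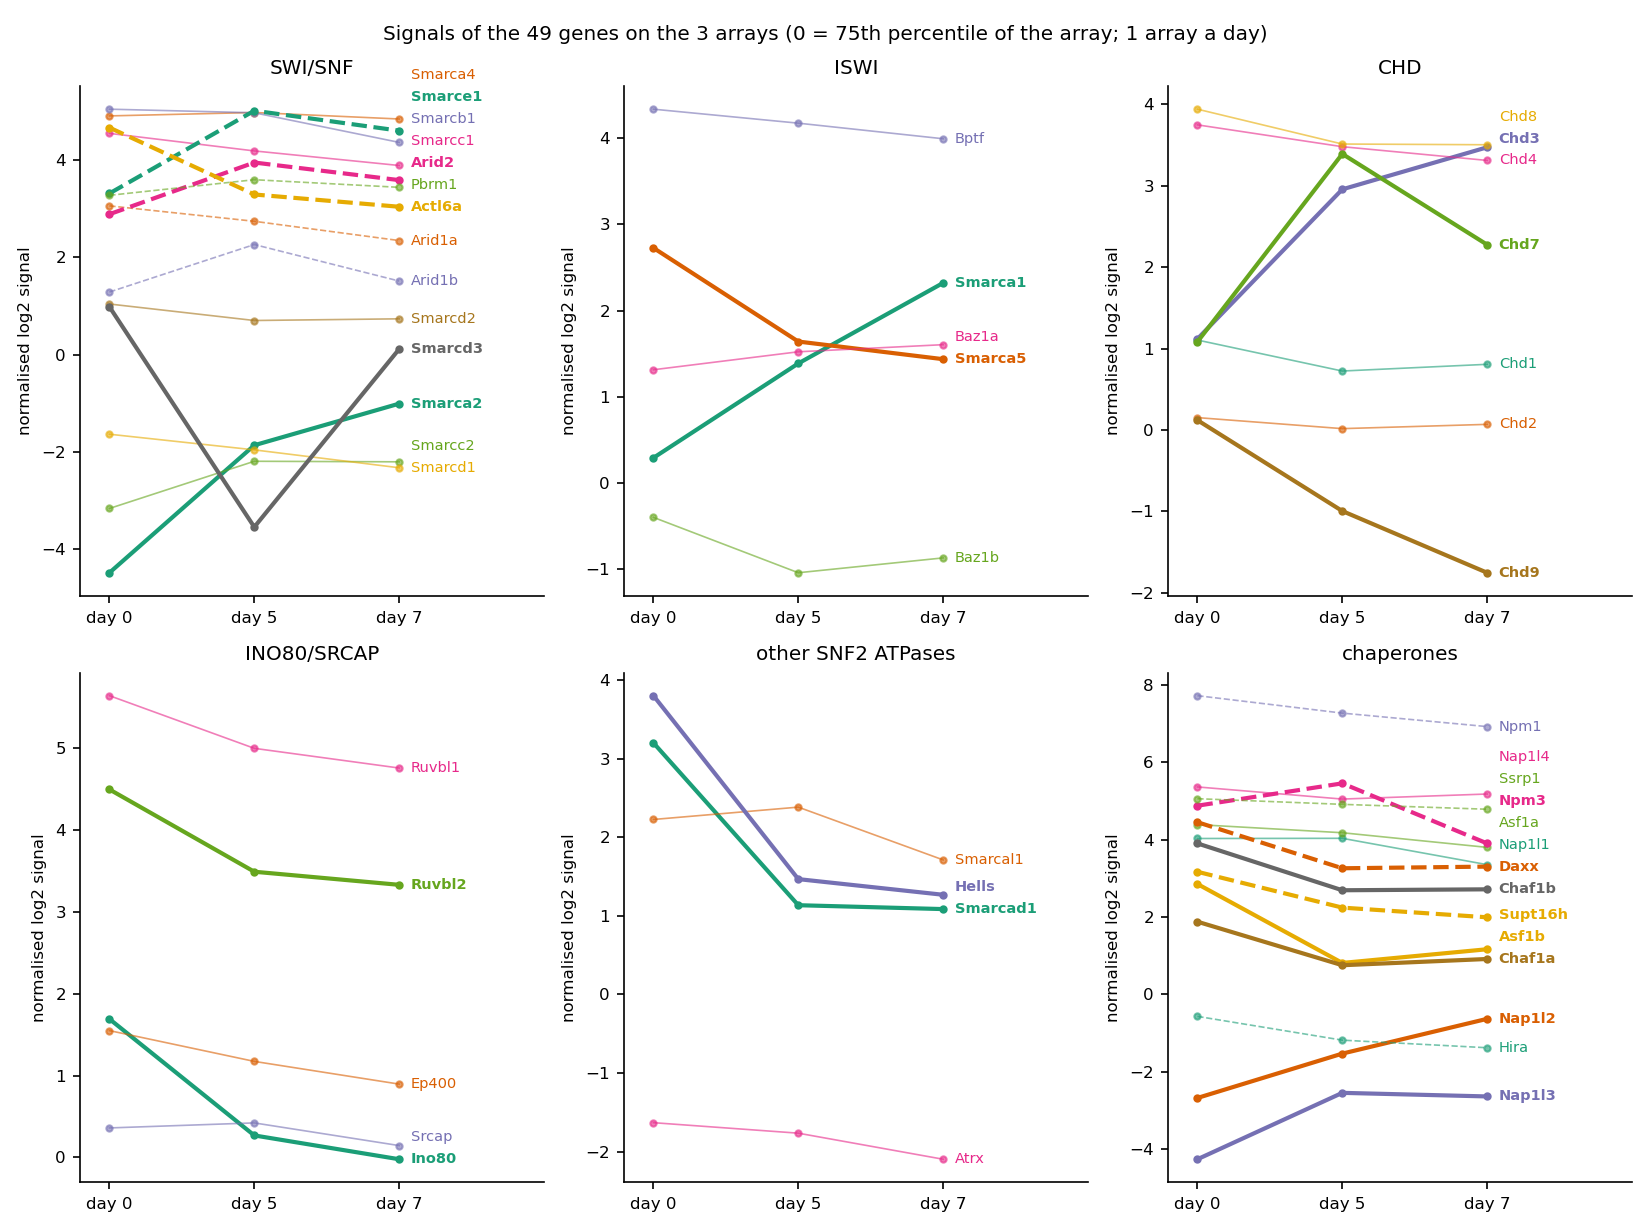
Normalised log2 signal (vertical axis, 0 = 75th percentile of the array) of each of the 49 genes on days 0, 5 and 7, 1 array a day, in 6 groups. Bold names and thick lines mark genes called in at least 1 comparison; Smarca1 and Smarca5 cross, Hells and Smarcad1 drop together by day 5, and Smarcd3 dips to -3.55 on day 5.

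**Figure D2:**
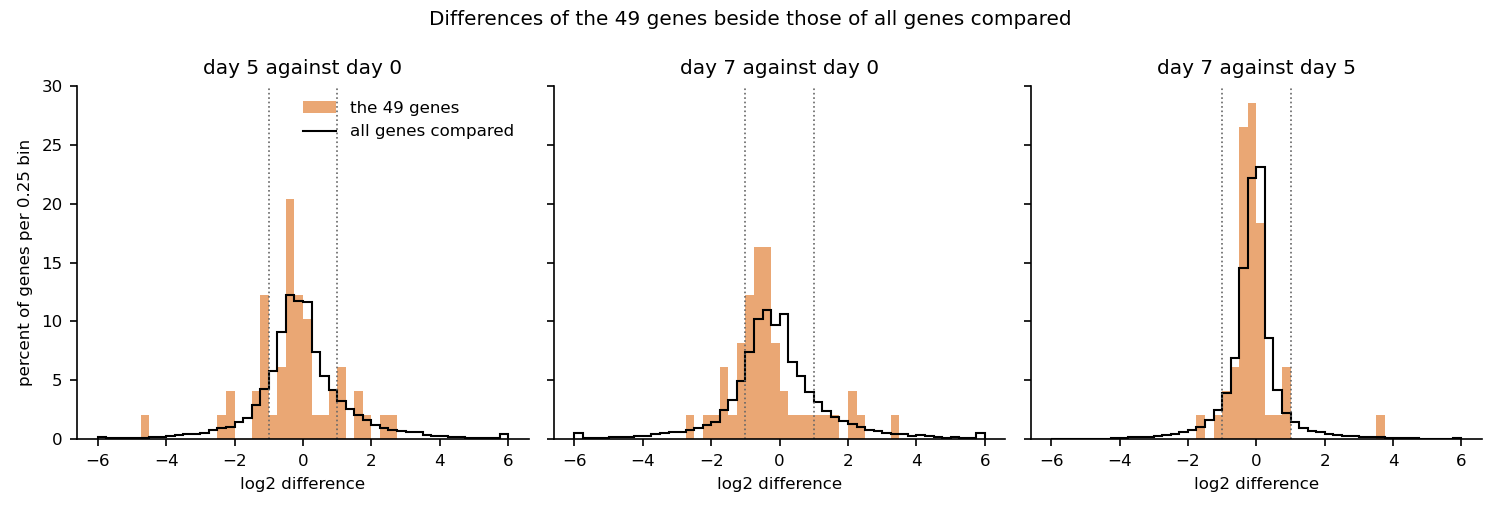
Percent of genes (vertical axis) per 0.25-wide bin of log2 difference (horizontal axis), for the 49 genes (filled) and all 21616 genes compared (line); dotted lines mark 2-fold, and values beyond 6 are pooled in the end bins. The bulk of the 49 lies left of 0 in the comparisons against day 0 and close to 0 for day 7 against day 5.

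On day 5 against day 0, the widest fall and the widest rise among the genes described here each came from 1 SWI/SNF gene. These were Smarcd3 (-4.54) and Smarca2 (2.63), the rise resting on 1 dim probe. The next largest rise was that of Chd7 (2.31), a CHD gene. On day 7 against day 0 Smarca2 rose most (3.48), but the widest fall was that of Hells (-2.54), outside the group. Of the 14 SWI/SNF subunits, 3 were called higher and 2 lower on day 5, and 2 higher and 1 lower on day 7. Their medians were -0.00 and -0.18 (0.31 and 0.02 with quantile normalisation). Smarca4 (Brg1), the ATPase of the ES cell complex, had 4.91 on day 0, 4.98 on day 5 and 4.85 on day 7, so that its differences from day 0 were 0.07 and -0.06, within the spot noise. Smarca2 (Brm), the alternative ATPase that replaces it in many differentiated cells, had -4.50, -1.87 and -1.01 from a probe at chr19:26852394-26852453. It was 6.17-fold higher on day 5 and 11.2-fold higher on day 7 than on day 0. These values rest on 1 probe: the other Smarca2 probe above background, at chr19:26728858-26728917, had -5.47, -6.60 and -4.14, which is lower by 1.13 on day 5 and higher by 1.33 on day 7. With the median level over the probes Smarca2 differed by 0.75 on day 5. With normexp background correction it differed by -0.75 on day 5 and 0.19 on day 7, so that both calls were lost, and with a refit of that correction without misfitting spots Smarca2 was past 2-fold on both days (1.89 and 2.69). The 2 probes were designed on different transcripts and agree in direction on day 7 only.

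Smarcd3 (Baf60c), a subunit known for its part in heart and muscle development, had the largest difference of the 49 genes. It had 0.98 on day 0, -3.55 on day 5 and 0.11 on day 7, from the only Smarcd3 probe, at chr5:24098592-24098863. It was 23.2-fold lower on day 5 than on day 0 and 12.7-fold higher on day 7 than on day 5, while day 7 lay lower than day 0 by less than 2-fold (-0.87). It was the only one of the 49 called higher on day 7 against day 5. The other subunits of its kind stayed within 2-fold: Smarcd1 had -1.64, -1.96 and -2.33, and Smarcd2 had 1.04, 0.70 and 0.74. Of 6 cardiac mesoderm markers, 4 were called higher and 1 lower on day 5 against day 0. On day 7 against day 5, 5 of them were called higher and 1 lower. Tbx20, the first in the list, had -6.27, -2.66 and -1.38. Nkx2-5, named out of list order, had -3.50, -4.71 and -2.25 and was the 1 marker called lower on day 5. The part of cardiac cells in the Smarcd3 values was not tested.

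Actl6a (Baf53a), the actin-like subunit of BAF complexes in dividing cells that is also part of INO80 and TIP60 complexes, had 4.67, 3.30 and 3.04 from its probe at chr3:32621551-32621610. It was 2.60-fold lower on day 5 and 3.10-fold lower on day 7 than on day 0. Smarce1 (Baf57), a DNA-binding subunit with a high mobility group box, had 3.32, 5.02 and 4.61, which was 3.26-fold higher on day 5 and 2.45-fold higher on day 7. The probes of Smarce1 disagreed in size. A second probe of the same transcript had 0.90, 1.27 and 0.97, differences of 0.37 and 0.07, and another probe above background on all days had -6.19, -4.79 and -5.30, differences of 1.39 and 0.89. All 3 thus lay above 0, with 2 past 2-fold on day 5 and 1 on day 7. When the median level over all Smarce1 probes was taken on each day, Smarce1 was under 2-fold on both (0.88 and 0.48).

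The scaffold and ARID subunits come as pairs of relatives, and no pair was called, though each differed in direction within itself on day 5. Smarcc1 (Baf155), the scaffold of the ES cell complex, had 4.55, 4.19 and 3.89, while Smarcc2 (Baf170) had -3.17, -2.20 and -2.21. The differences of Smarcc2 from day 0, 0.97 and 0.96, stayed just inside the 2-fold limit. They exceeded those of Smarcc1 by 1.33 on day 5 and 1.62 on day 7. Smarcc2 is dim, however, and its sign depended on the processing. Over 9 other ways of processing it ranged from -1.09 to 0.97 on day 5 and from -0.65 to 1.00 on day 7. A second Smarcc1 probe was lower by 1.05 and 1.07. Arid1b had 1.29, 2.27 and 1.51 and Arid1a had 3.06, 2.74 and 2.35, both being DNA-binding subunits that exclude each other in a BAF complex. Arid1b was higher on day 5 by 0.98, again just inside the limit, and Arid1a was lower by 0.32. A second Arid1b probe was higher by 1.23 on day 5 and by 0.81 on day 7. Under 5 of 9 other ways of processing Arid1b was past 2-fold on day 5. The 9 include filter settings that could not change its value.

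Arid2, the corresponding subunit of the PBAF form of the complex, had 2.89, 3.95 and 3.59 from its probe at chr15:96232597-96232655. It was just past 2-fold on day 5 (2.09-fold higher) and inside it when each array was scaled to its median (0.95). A second Arid2 probe was higher by 1.27 on day 5, and 8 of 9 other ways of processing left Arid2 past 2-fold. Among those 8 are filter settings that could not change its value. Pbrm1, the bromodomain subunit of PBAF, had 3.28, 3.60 and 3.44. The core subunit Smarcb1 had 5.05, 4.98 and 4.37 and was not called in any comparison.

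Of 14 other SWI/SNF subunits, 3 were called higher and 0 lower on day 5, and 1 higher and 0 lower on day 7. Dpf3, a reader of acetylated and methylated histones known from heart and muscle, was 9.37-fold higher on day 5 and higher by 3.27 on the log2 scale on day 7. The zinc finger proteins Bcl11a and Bcl11b, known from blood and nervous tissue, were higher by 1.75 and 1.80 on day 5 than on day 0, and lower by 2.10 and 1.72 on day 7 than on day 5.

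**Figure D3:**
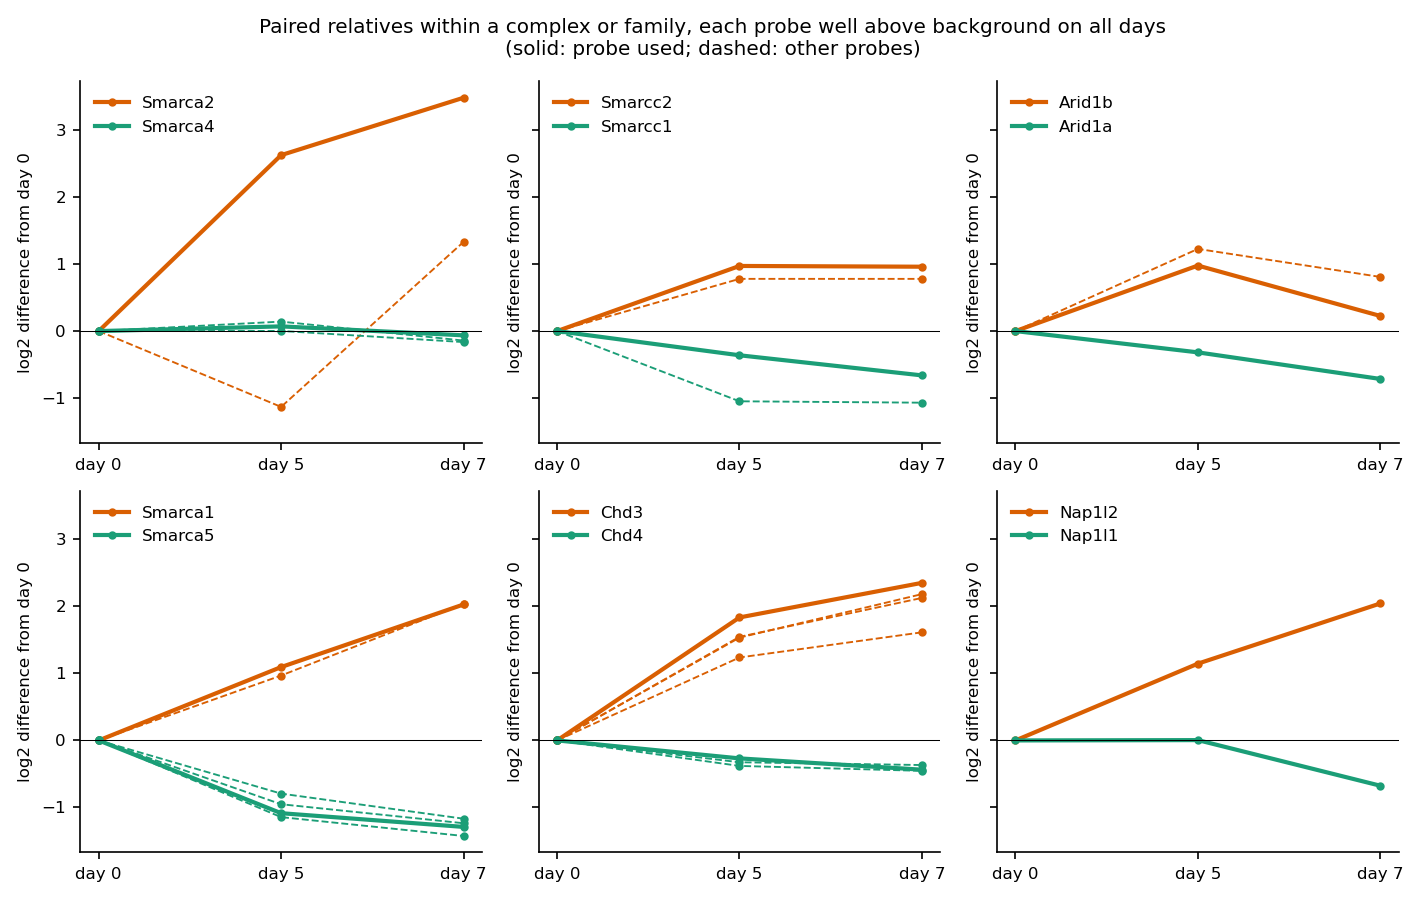
Log2 difference from day 0 (vertical axis) on days 5 and 7 for 6 pairs of relatives, 1 array a day; solid lines show the probe used, dashed lines every other probe well above background on all days. Smarca1, Chd3 and their other probes lie above 0 and Smarca5, Chd4 and theirs below it, whereas the second Smarca2 probe lies at -1.13 on day 5 and 1.33 on day 7.

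Among the ISWI proteins, the ATPases moved in opposite directions. Smarca1 (Snf2l), the ATPase of the NURF complex, had 0.29 on day 0, 1.39 on day 5 and 2.32 on day 7 from a probe at chrX:45163226-45163285. It was 2.14-fold higher on day 5 and 4.08-fold higher on day 7 than on day 0. Smarca5 (Snf2h), the ATPase of the ACF, CHRAC and WICH complexes and abundant in dividing cells, had 2.73, 1.64 and 1.44 from a probe at chr8:83233028-83233087. It was 2.12-fold lower on day 5 and 2.45-fold lower on day 7. The difference of Smarca1 exceeded that of Smarca5 by 2.18 on day 5 and by 3.32 on day 7.

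Both probes of Smarca1 lay above 0 on both days. The 4 Smarca5 probes gave -1.14 to -0.79 on day 5 and -1.43 to -1.17 on day 7, all below 0. The day 5 calls were close to the limit: with each array scaled to its median Smarca1 differed by 0.98, and with quantile normalisation Smarca5 differed by -0.97. The 3 partners were not called in any comparison. Bptf, the large histone-reading subunit of NURF, had 4.34, 4.17 and 3.99; Baz1a, the partner in ACF, had 1.31, 1.52 and 1.61; and Baz1b, the partner in WICH, had -0.40, -1.04 and -0.87. The 3 Baz1a probes ranged from -0.24 to 0.92 on day 5 and from -0.07 to 1.02 on day 7. Of 7 genes listed as other ISWI partners, 0 were called higher on either day, 1 was lower on day 5 and 3 on day 7. Among them was Pole4, lower by 1.54 and 1.70, which is in that list but is known as a histone-fold subunit of DNA polymerase epsilon.

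In the CHD family Chd3 and Chd7 were called higher and Chd9 lower on both later days, 2 and 1 of 7. Chd3, a motor subunit of NuRD, had 1.12 on day 0, 2.95 on day 5 and 3.47 on day 7 from a probe at chr11:69177640-69178247. It was 3.57-fold higher on day 5 and 5.10-fold higher on day 7. Its 4 probes all exceeded 2-fold, with 1.24 to 1.84 on day 5 and 1.61 to 2.35 on day 7. Chd4, the main NuRD motor in ES cells, had 3.75, 3.48 and 3.31, differences of -0.27 and -0.44, so that the difference of Chd3 exceeded that of Chd4 by 2.10 and 2.79. Of all genes, 16.4% were called higher and 16.1% lower on day 5, and 16.2% and 19.1% on day 7. Of 13 other NuRD genes, 0 were called higher and 2 (15.4%) lower on each later day. These were Chd5, a relative of both motors that is best known from neurons and testis (-1.42 on day 5 and -2.10 on day 7), and Mta3, a scaffold subunit (-1.51 and -1.32).

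Chd7, which binds enhancers and is mutated in CHARGE syndrome, peaked on day 5. It had 1.08, 3.39 and 2.28 from a probe at chr4:8793693-8793752, 4.95-fold higher on day 5 and 2.29-fold higher on day 7 than on day 0. Day 7 was 2.17-fold lower than day 5, a difference of -1.11 that shrank to -0.96 with each array scaled to its median. The 3 Chd7 probes agreed on day 5 (1.14 to 2.35), and on day 7 they ranged from -0.12 to 1.26. Chd9, a relative of Chd7 whose role is less well known, had 0.12, -0.99 and -1.75 from a probe at chr8:93577634-93577693. It was 2.17-fold lower on day 5 and 3.66-fold lower on day 7. The other 3 Chd9 probes above background on all days differed by -1.02, -0.75 and 0.25 on day 5 and by -1.73, -1.55 and -1.87 on day 7. When the median level over all Chd9 probes was taken on each day, the day 5 difference was -0.70. Chd8, which binds beta-catenin, had 3.94, 3.51 and 3.50. Chd1, which reads the active mark on histone H3 and is needed for the open chromatin of ES cells, had 1.10, 0.72 and 0.81, and its relative Chd2 had 0.15, 0.02 and 0.07, so that none of the 3 was called.

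No gene of the INO80 and SRCAP group was called higher, and 2 of 5 were called lower on each later day. Of all genes, 16.4% were called higher and 16.1% lower on day 5, and 16.2% and 19.1% on day 7. With 5 genes, these counts say little about the group. Ino80, the ATPase that gives the complex its name, had 1.69 on day 0, 0.27 on day 5 and -0.02 on day 7 from a probe at chr2:119199044-119199103. It was 2.68-fold lower on day 5 and 3.28-fold lower on day 7, and all 3 of its probes were past 2-fold. Ruvbl2, a ring-forming ATPase shared by INO80, SRCAP and TIP60 complexes, had 4.50, 3.49 and 3.33 from a probe at chr7:52677539-52677776. It was 2.01-fold lower on day 5 and 2.24-fold lower on day 7, and inside the limit with quantile normalisation (-0.73 and -0.88). Its partner Ruvbl1 had 5.64, 5.00 and 4.76, lower on both days by less than 2-fold.

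The ATPases that place H2A.Z were not called. Srcap had 0.36, 0.42 and 0.14, and Ep400, the motor of the TIP60 complex, had 1.55, 1.17 and 0.90. A second Ep400 probe was lower by 2.03 on day 5 and by 0.63 on day 7. Of 22 other INO80, SRCAP and TIP60 subunits measured, 0 were called higher and 2 (9.09%) lower on each later day. Ino80e, a subunit of INO80, was lower by 2.17 and 1.83. Of all genes, 16.1% were called lower on day 5 and 19.1% on day 7.

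Hells and Smarcad1 gave the largest falls among the remaining SNF2 ATPases, 2 of 4 genes called lower on each later day and none higher. Hells (Lsh), which is needed for DNA methylation at repeats and is expressed in dividing cells, had 3.80 on day 0, 1.47 on day 5 and 1.27 on day 7 from its only probe, at chr19:39039914-39039973. It was 5.05-fold lower on day 5 and 5.80-fold lower on day 7. Smarcad1, which keeps heterochromatin through replication and is linked to the naive state of ES cells, had 3.20, 1.14 and 1.09 from a probe at chr6:65065856-65065915. It was 4.19-fold lower on day 5 and 4.34-fold lower on day 7, and its 2 probes agreed. Atrx, which places histone H3.3 at telomeres and repeats together with Daxx, had -1.63, -1.77 and -2.10. Smarcal1, which rewinds DNA at stalled replication forks, had 2.23, 2.39 and 1.71, and neither was called.

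Among the 14 chaperones, 2 (14.3%) were called higher and 4 (28.6%) lower on each later day, with medians of -0.38 on day 5 and -0.80 on day 7 (2 lower on each day, -0.05 and -0.54, with quantile normalisation). Of all genes, 16.4% were called higher and 16.1% lower on day 5, and 16.2% and 19.1% on day 7. The 2 chaperones called higher were Nap1l2 and Nap1l3, X-linked relatives of the H2A-H2B carrier Nap1l1 that are best known from neurons. Nap1l2 had -2.68 on day 0, -1.53 on day 5 and -0.63 on day 7 from its probe at chrX:100379748-100379807. It was 2.21-fold higher on day 5 and 4.12-fold higher on day 7. Nap1l3 had -4.26, -2.55 and -2.64 from a probe at chrX:119508678-119508737, 3.28-fold higher on day 5 and 3.08-fold higher on day 7. Both are dim: with normexp background correction their differences on day 5 turned negative (-0.75 for Nap1l2 and -1.40 for Nap1l3), as did that of Nap1l3 on day 7 (-0.84), and Nap1l2 fell under 2-fold on day 7 (0.21). With a refit that left out misfitting spots all 4 differences were positive, and that of Nap1l2 on day 5 was under 2-fold (0.93). Nap1l1 itself had 4.03, 4.03 and 3.35, and Nap1l4 had 5.36, 5.05 and 5.18. The difference of Nap1l2 exceeded that of Nap1l1 by 1.14 on day 5 and by 2.72 on day 7. Beside these, 1 of 7 neural markers was called higher and 2 lower on day 5, and 2 higher and 2 lower on day 7, with medians of -0.18 and -0.55, and the neuronal gene Tubb3 had 0.00, -1.59 and -1.26.

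Of the carriers of histones H3 and H4 that work at the replication fork, Asf1b, Chaf1a and Chaf1b were lower. Asf1b, the form of Asf1 tied to dividing cells, had 2.85, 0.81 and 1.16 from its probe at chr8:86493842-86493901, 4.11-fold lower on day 5 and 3.22-fold lower on day 7. Its relative Asf1a had 4.39, 4.18 and 3.80, and the difference of Asf1b lay below that of Asf1a by 1.83 and 1.10. A second, dimmer Asf1a probe went the other way, with differences of 0.66 and 0.44. Chaf1b, a subunit of CAF-1, which loads H3 and H4 onto newly made DNA, had 3.90, 2.69 and 2.71 from its probe at chr16:93906269-93906329. It was 2.31-fold lower on day 5 and 2.28-fold lower on day 7, and inside the limit with quantile normalisation (-0.98 and -0.96). Chaf1a, the large CAF-1 subunit, had 1.88, 0.75 and 0.91 from its probe at chr17:56206969-56207028, lower by 1.12 on day 5 and by 0.96 on day 7, the second being just short of 2-fold.

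Both chaperones of histone H3.3, which is laid down outside replication, lay below their day 0 level. Daxx had 4.45, 3.26 and 3.30 from its probe at chr17:34052404-34052463. It was 2.28-fold lower on day 5 and 2.22-fold lower on day 7, and inside the limit with quantile normalisation (-0.94 and -0.87). Hira had -0.57, -1.18 and -1.38, differences of -0.61 and -0.81. Of its other probes, 1 lay at the 2-fold limit on day 5 and at -1.18 on day 7, and 1 gave -0.44 and -0.52. The subunits of FACT, which takes H2A and H2B off and on ahead of polymerases, differed as well. Supt16h had 3.17, 2.24 and 1.99 from its probe at chr14:52780507-52780566 and was 2.26-fold lower on day 7, while Ssrp1 had 5.05, 4.91 and 4.78.

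Of the nucleoplasmins, Npm1, an abundant nucleolar chaperone, had 7.72, 7.27 and 6.92 and was not called. Npm3 had 4.87 on day 0, 5.45 on day 5 and 3.90 on day 7 from its probe at chr19:45822349-45822408. It was 2.93-fold lower on day 7 than on day 5, and with Chd7 it was 1 of the 2 genes called lower in that comparison. Of 14 other histone chaperones measured, 1 was called higher on each later day, Npm2, a nucleoplasmin best known from the egg (1.06 and 1.04). On day 5 3 were called lower and on day 7 4, among them Hat1, which acetylates new histone H4 (-1.90 and -2.01), and Nasp, which stores H3 and H4 (-1.37 and -1.61).

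**Figure D4:**
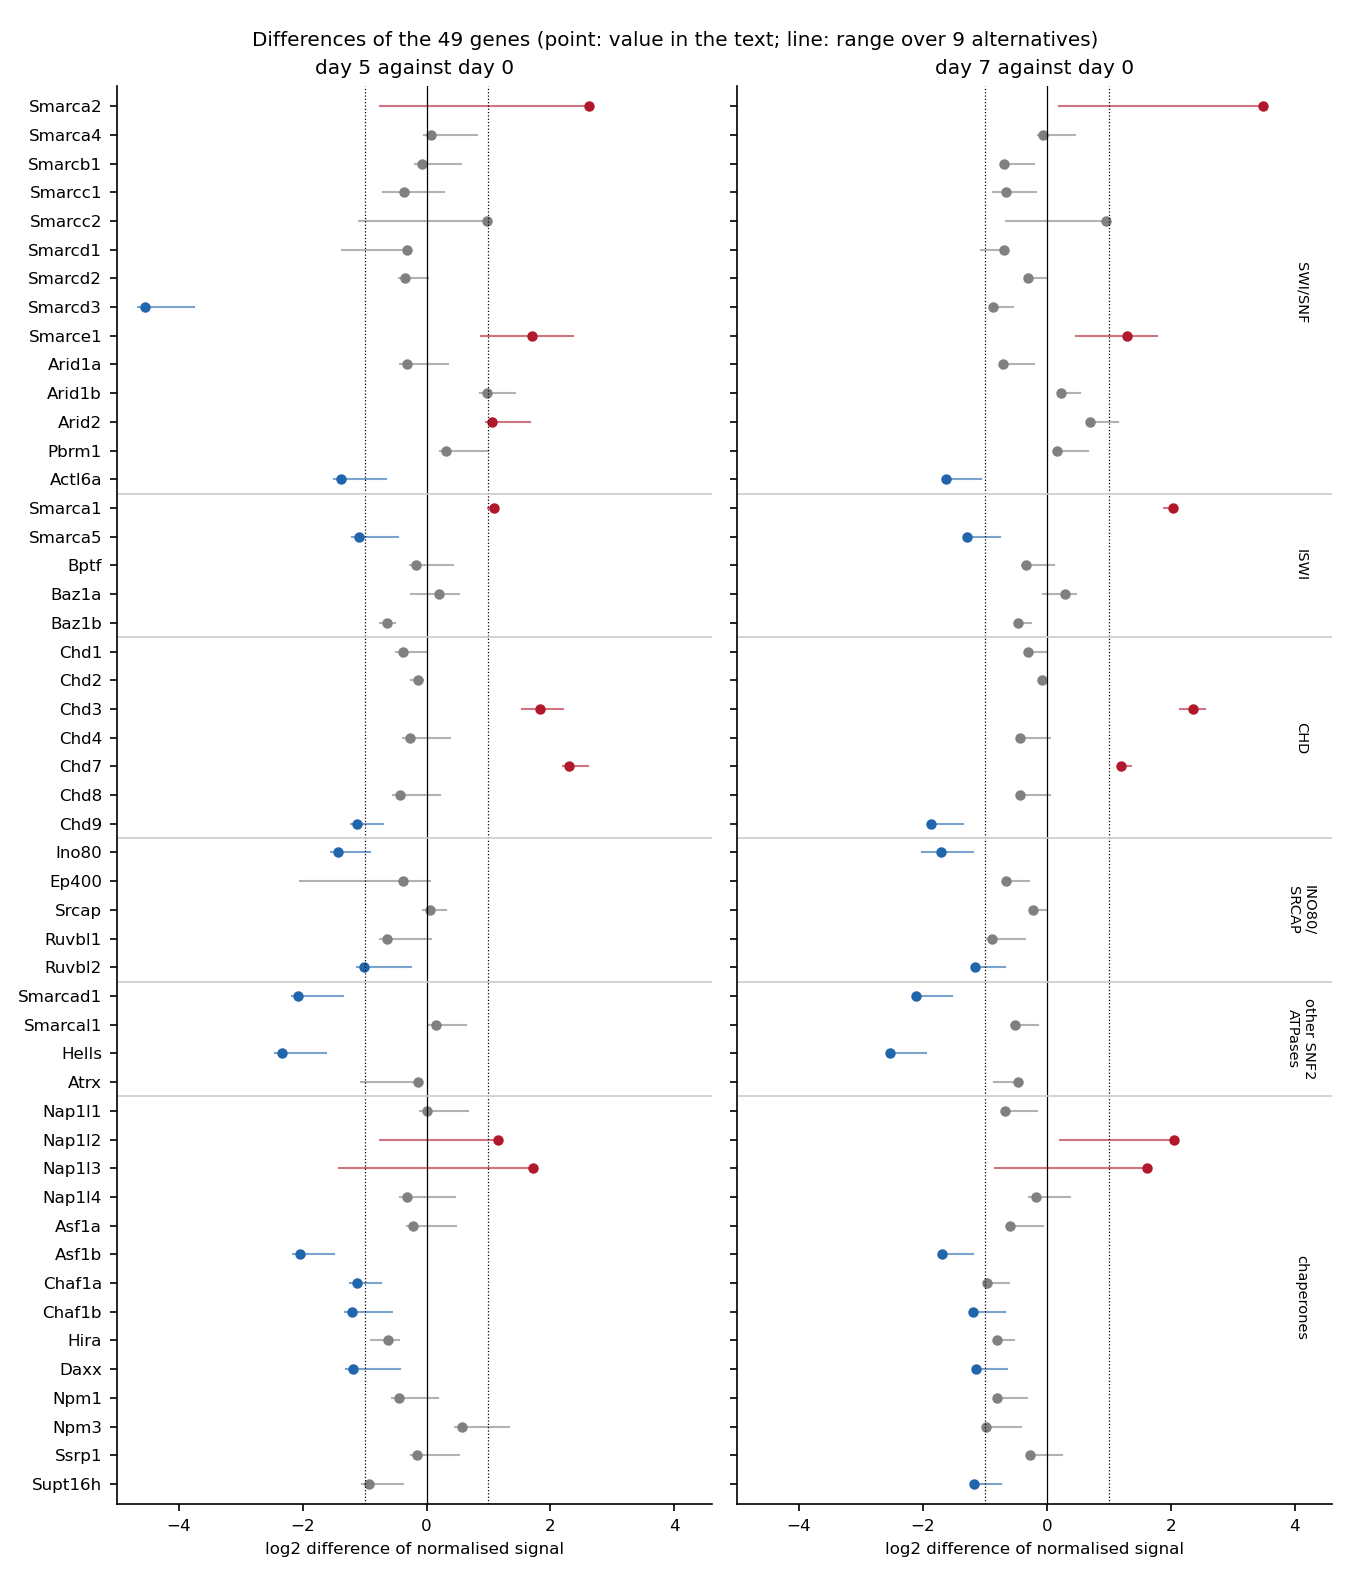
Log2 difference of normalised signal (horizontal axis) of the 49 genes on day 5 and on day 7, each against day 0, as points (red: called higher, blue: called lower, grey: under 2-fold); lines span the lowest and highest value over 9 other ways of processing and are no error bars. The dim genes Smarca2, Smarcc2, Nap1l2 and Nap1l3 have lines that cross 0 on day 5, and Smarcd3, Hells, Smarcad1, Asf1b, Chd3 and Chd7 stay past the dotted 2-fold line.

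Genes of S phase and mitosis were set beside members picked by hand for a link to replication: Hells, Asf1b, Chaf1a, Chaf1b, Ssrp1 and Supt16h. Of 20 such genes, 0 were called higher, 11 were called lower on day 5 and 14 on day 7, with medians of -1.14 and -1.09, and their summed signal was 702, 307 and 308 times the 75th percentile on days 0, 5 and 7. Of all genes, 16.1% were called lower on day 5 and 19.1% on day 7. All 20 S phase and mitosis genes lay below 0 on both days. With quantile normalisation 8 and 9 were called lower, and 19 of 20 lay below 0 on day 7. Cyclin E1 (Ccne1) was lower by 2.34 and 2.51, a size like that of Hells (2.34 and 2.54). Mcm3, a subunit of the replicative helicase, was lower by 1.46 and 1.50, and Pcna, the sliding clamp to which CAF-1 binds, by 1.32 and 1.05. On day 7 against day 5 none of the 20 was called and their median was -0.04. Hells, Asf1b, Chaf1a and Chaf1b were within 2-fold too, but so were most genes. Of all genes, 5.98% were called higher and 8.38% lower in that comparison. The part of these genes' common fall in the differences of the chaperones was not tested.

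**Figure D5:**
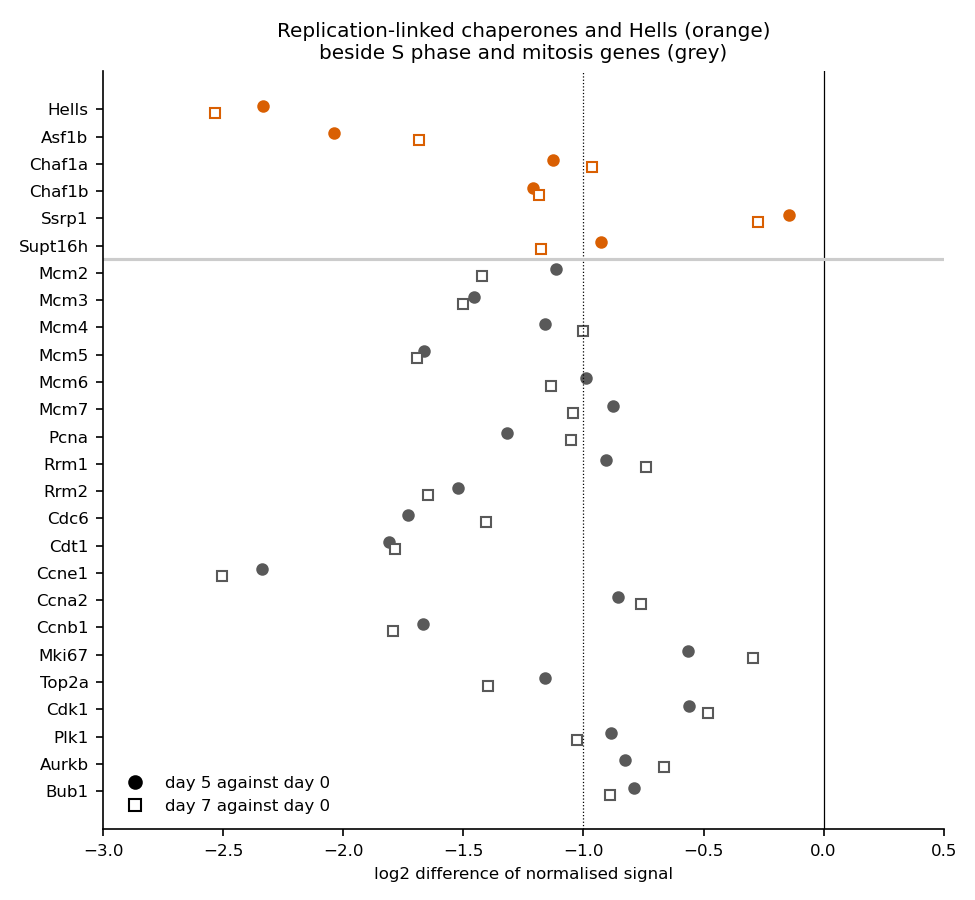
Log2 difference of normalised signal (horizontal axis) on day 5 (filled circles) and day 7 (open squares), each against day 0, for Hells and 5 chaperone subunits (orange) above 20 S phase and mitosis genes (grey), 1 array a day. Apart from Ssrp1 at -0.15 and -0.27, the orange genes lie between -2.54 and -0.93, and the grey ones between -2.51 and -0.29. The orange genes were picked by hand. Not drawn are Asf1a (-0.21 and -0.59), Smarcal1 (0.16 and -0.51) and Smarcad1 (-2.07 and -2.12).

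Promoters of the 49 genes were searched for the motif of the E2F factors, which drive many replication genes, because several of the genes called lower act in replication. The motif reads TTT, then 2 bases that are each C or G, then CGC, and was sought on both strands in windows from 250 bases before to 50 bases after the gene start (RefSeq, build GRCm38.p6). Such windows were at hand for 39 of the 49 genes, and 4 genes held the motif (10.3%), beside 744 of 32851 windows in the whole table (2.26%) and 2.60% of its 27025 genes. Of the 12 genes called lower on day 5, all 12 had a window and 1, Hells, held the motif. The stretches around it are shown 5′ to 3′ on the strand of the gene, with the motif in capitals, because they set the promoter of Hells beside those of 3 genes that were not called.
Hells: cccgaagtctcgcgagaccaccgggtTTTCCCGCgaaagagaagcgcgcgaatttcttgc
Arid1a: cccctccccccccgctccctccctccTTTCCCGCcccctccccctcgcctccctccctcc
Smarcd1: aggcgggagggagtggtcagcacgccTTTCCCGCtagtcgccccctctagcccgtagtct
Ssrp1: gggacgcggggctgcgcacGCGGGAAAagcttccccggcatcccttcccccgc
These lie at chr19:38930902-38930961 (plus strand) for Hells, chr4:133754007-133754066 (minus strand) for Arid1a, chr15:99702130-99702189 (plus strand) for Smarcd1 and chr2:85037201-85037253 (plus strand) for Ssrp1. Counted from the gene start, the motif begins at base -62 in Hells, -55 in Arid1a, -131 in Smarcd1 and -231 in Ssrp1, where it lies on the opposite strand. Hells differed by -2.34 on day 5, while Arid1a, Smarcd1 and Ssrp1 differed by -0.32, -0.32 and -0.15. A match of letters is no evidence of binding, and no match says only that these letters are not in the window.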

How the data were processed

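Total RNA of 3 cultures was labelled with Cy3 and hybridised to 1 one-colour Agilent array each. Per the file headers, the scanner intensities were extracted by the authors with Agilent Feature Extraction 10.5.1.1, which subtracts background, and probes were placed on mm9. The deposited value table holds log2 values whose normalisation no header or label states; it served as an alternative. From the processed intensity, the 75th percentile of all gene spots of each array was set to 0 on the log2 scale. Spots of a probe were averaged after leaving out those marked as outliers (Python 3.11.15, pandas 2.3.3, numpy 2.4.6, with the normexp alternative in limma 3.58.1, R 4.3.3). Probes were named through RefSeq by accession (24844) or symbol (6045), otherwise by the files' name (10285), and 92 on another chromosome than their gene were left out. Of several probes of a gene, the one above background on most arrays, and of these the brightest, was used. Called means a difference of at least 2-fold with the brighter signal well above background. Named are members called in any comparison, their relatives in the same complex and the ATPases, and of other lists the called genes with the largest differences or the first markers. The 49 genes, the lists and the pairs were chosen with earlier results of these data known. The number of arrays limits the precision.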

Additional observations from a re-analysis of the deposited data

How the results depend on the processing

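No paired analysis was possible because each day has 1 array. Of 41 called differences, 17 were past 2-fold in the same direction under all 9 alternatives, and 26 under the 8 other than the first normexp background fit; under these 8 none changed sign. That fit was set by a few spots with a local background above their signal (fitted background mean -1242 on day 0), and a refit without them was chosen after seeing the data. The first fit turned Smarca2 (-0.75), Nap1l2 (-0.75) and Nap1l3 (-1.40) on day 5 and Nap1l3 (-0.84) on day 7. It put Smarca2 (0.19) and Nap1l2 (0.21) under 2-fold on day 7. It left 7 of the 49 called lower on day 7 (14.3%), beside 39.5% of all genes. The medians of the 49 genes moved to 0.049 and -0.20 on days 5 and 7, and those of all genes to -0.62 and -0.56. Of all genes, 1743 were called higher and 9554 lower on day 5, beside 3555 and 3478 without that fit. With each array's median subtracted, the medians of the 49 were -0.42 on day 5 and -0.028 on day 7 against day 5, beside -0.22 and 0.040 for all genes. On day 7 against day 5, 5 of the 49 were then called, 4 higher (8.16%) and 1 lower (2.04%). Of all genes, 7.24% and 6.83% were. Quantile normalisation gave medians of -0.12 and -0.36 on days 5 and 7 and the authors' table -0.11 and -0.36; both gave 8 genes called lower on each day, beside 12 and 11, and left Ruvbl2, Chaf1b and Daxx under 2-fold. With the median level over probes on each day, 6 of the 49 were called on day 7 against day 5, 4 higher (8.16%) and 2 lower (4.08%). Of all genes, 7.12% were called higher and 9.28% lower in that setting. The causes of the other changes were not tested. Dim signals such as those of Smarca2 and Nap1l3 depend most on the background correction. Smarcc2, dim and not called, fell as low as -1.09 on day 5 and -0.65 on day 7 over the alternatives.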

Other observations

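A probe that the array names Chd2 lies at chr5:24101606-24101665 (mm9), 2743 bases from the Smarcd3 probe and on another chromosome than Chd2, and was left out of the Chd2 values. It read -6.91 on day 0, not above background, then -4.47 on day 5 and -4.88 on day 7. It was brightest on day 5, when Smarcd3 was dimmest. What it measures was not tested.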
